A study of Homo sapiens with 18 samples.

Results

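The genes described here are 9 regulators of Wnt signalling: the secreted proteins DKK1 and DKK3, the receptors FZD7 and LRP6, the membrane ligases RNF43 and ZNRF3, the feedback scaffold AXIN2, and the transcription factors TCF7 and LEF1. They were chosen by name and were found as 9 of the 26668 gene symbols in an expression table of pancreatic cancer cells with and without knockdown of OFD1, which encodes a protein of centrosomes and the base of cilia. RNA was sequenced from PANC1, MIA PaCa-2 and PATU8988T, which are established human pancreatic cancer lines, with 3 control and 3 knockdown libraries in each and 18 in all. Knockdown samples carry the genotype shOFD1 in their labels and were collected 72 h after doxycycline had switched the shRNA on, and every control has the genotype WT and no treatment. Titles of the controls name a control shRNA, the methods of the study give DMSO to Tet-on-shOFD1 cells, and the series text places controls at day 0, so which cells the controls were was not settled here. Doxycycline was given to the knockdown cultures only, so its own effect and that of the shRNA cannot be told apart, and the shRNA used for these libraries is not given in the sources used here. The cell line label of replicates 2 and 3 in both PATU8988T groups names another line than their title does, and the titles were followed. Nothing in the labels ties the replicates to separately grown cultures, so p-values measure the spread between these samples, which may be technical.

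Wnt proteins bind a Frizzled receptor together with LRP5 or LRP6, which stops the destruction of β-catenin and lets it act with TCF and LEF factors on target genes. DKK1 is a secreted inhibitor that binds LRP5 and LRP6 and can remove them from the membrane with the help of KREMEN proteins. RNF43 and ZNRF3 take Frizzled receptors off the cell surface, and R-spondins block these ligases through LGR receptors. AXIN2, RNF43, ZNRF3, TCF7, LEF1 and DKK1 are themselves known as targets of β-catenin in various tissues, so the pathway dampens or reinforces itself. In pancreatic cancer, loss of RNF43 is known to make cells depend on Wnt ligands.

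Between 32486479 and 39797537 reads were counted per library. Expression is given in FPKM, that is, the reads of each gene divided by the gene's length and scaled to the size of the library. The log2 fold change of OFD1 itself was -1.07 for PANC1, -0.61 for MIA PaCa-2 and -1.10 for PATU8988T, and each knockdown library was below each control of its line. In MIA PaCa-2 the adjusted p of OFD1 was 0.0232, and it was above 0.05 when any 1 library other than control 2 was left out. MIA PaCa-2 control 2 stood apart from the other controls of that line, with chi-square values per degree of freedom between 121 and 124 against its replicates and between 3.02 and 11.7 in the other 16 replicate pairs, so values without it are given beside the calls of members that it changed. Of the 6 epithelial markers, KRT8 and KRT18 were between 319 and 947 FPKM on average in every group, EPCAM and CDH1 had at most 6 reads per library in MIA PaCa-2, and KRT19 at most 1 in PATU8988T. At an adjusted p below 0.05, 2 of these markers fell and 3 rose among 6 tested in PANC1, beside 32.2% and 40.1% of all tested genes. In MIA PaCa-2 1 of 3 fell, beside 21.7% lower and 18.7% higher of all tested genes. When control 2 was left out there, KRT8 fell and KRT19 rose (log2 fold change 0.45, adjusted p = 3.93e-06). Those calls stood among 4302 genes that fell and 3780 that rose. In PATU8988T 2 of 3 fell, beside 18.5% and 20.9%. The summed level of the 6 epithelial markers was 935 to 956 FPKM per control library and 921 to 942 FPKM per knockdown library in PANC1. It was 1616 to 2197 and 1359 to 1392 FPKM in MIA PaCa-2, and 1045 to 1069 and 838 to 909 FPKM in PATU8988T. Of the 9 markers of other cell types, CD3E and INS had no read in any library and DCN at most 1. CD68 was tested in all lines and fell in PANC1 (log2 fold change -0.93) and PATU8988T (-0.35). In MIA PaCa-2 CD68 did not pass with all libraries and rose without control 2 (log2 fold change 0.58, adjusted p = 6.45e-07). COL1A1 fell in PANC1 from 26.1 to 22.3 FPKM, and PTPRC rose in MIA PaCa-2 from 3.51 to 6.002 FPKM (adjusted p = 0.0312). The summed level of the 9 was 57.3 to 64.3 FPKM in the PANC1 controls and 39.1 to 41.7 FPKM after knockdown, 49.4 to 67.5 and 73.4 to 77.2 FPKM in MIA PaCa-2, and 13.7 to 13.99 and 9.85 to 11.7 FPKM in PATU8988T. The part of these markers in the results was not tested.

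Only members with a mean of at least 1 FPKM over the 6 libraries of a line were tested, which left 6 for PANC1, 5 for MIA PaCa-2 and 6 for PATU8988T. Each change is the mean log2(FPKM + 0.1) of knockdown minus that of control, fitted with limma over all genes of the line, with p-values adjusted by the Benjamini-Hochberg procedure over those genes. In PANC1, 4 of the 6 fell and 1 rose at an adjusted p below 0.05, where 32.2% of all tested genes fell and 40.1% rose. In MIA PaCa-2, 2 of the 5 fell and none rose, against 21.7% and 18.7% of all tested genes. Without control 2 of that line 3 members fell and 1 rose, among 4302 genes that fell and 3780 that rose, against 2338 and 2012 with it. PATU8988T had 2 members that fell and 2 that rose of 6, against 18.5% and 20.9% of all tested genes. With the further demand of a fold change above 2 or below 0.5, TCF7 in MIA PaCa-2 was the only member called, in a line where 7.75% of tested genes met it, and no member was called in PANC1 or PATU8988T, where 6.6% and 1.0% did. The tested members had a median log2 fold change of -0.24 for PANC1, -0.22 for MIA PaCa-2 and 0.03 for PATU8988T, and all tested genes one of 0.06, -0.03 and 0.03.

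**Figure D1:**
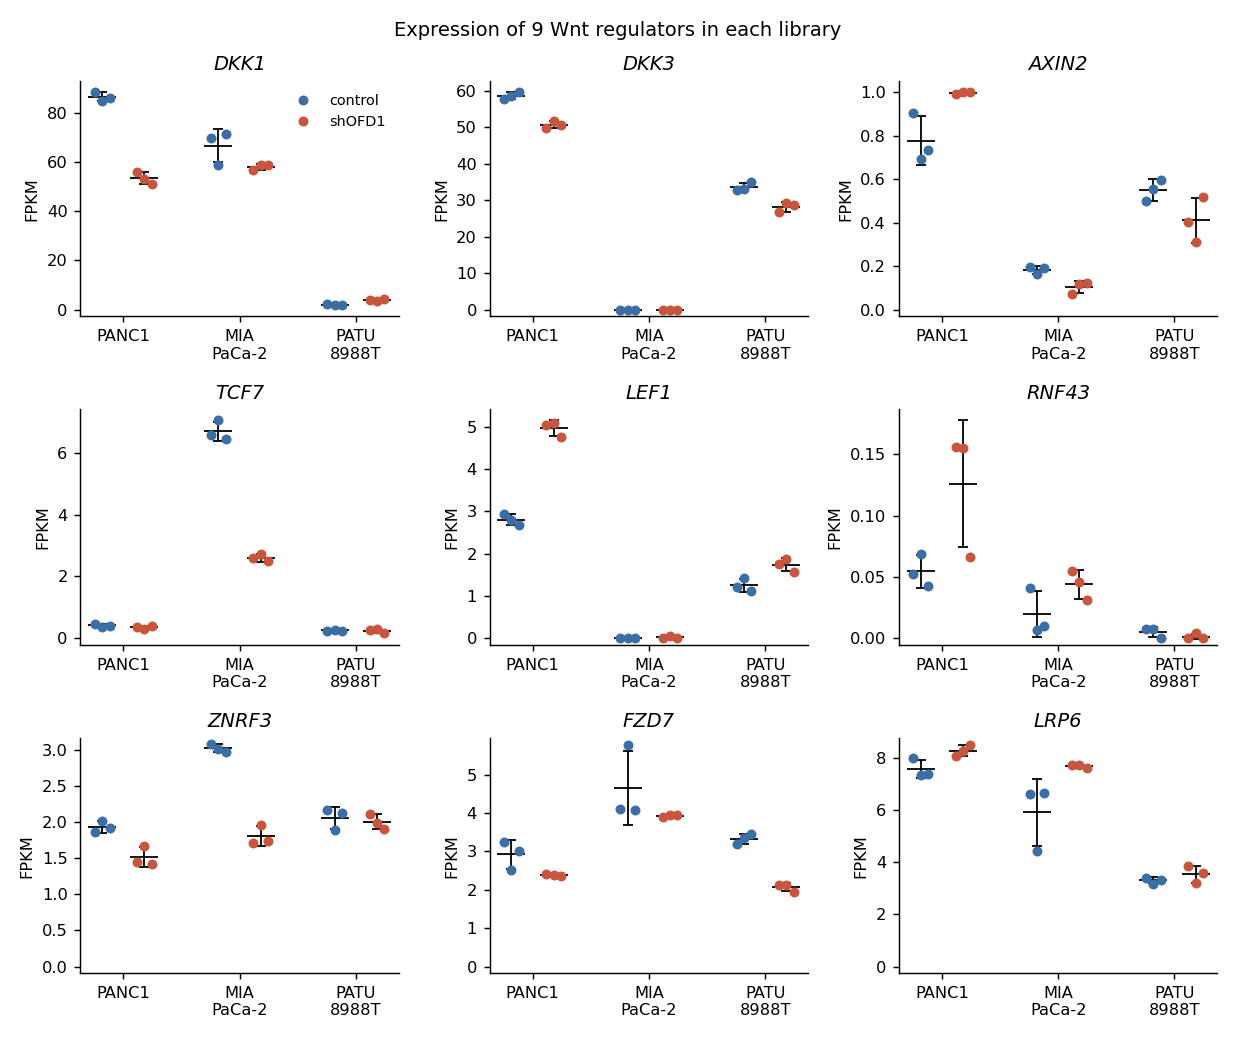
FPKM (y axis, linear, a scale of its own for each gene) of the 9 Wnt regulators in every library, with controls in blue and OFD1 knockdown in red for each line on the x axis; black marks are the mean and SD of 3 libraries. DKK1 fell in PANC1 and rose in PATU8988T, where its level was far lower, and TCF7 fell in MIA PaCa-2.

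DKK1, the inhibitor of LRP5 and LRP6, fell in PANC1 and rose in PATU8988T. In PANC1, the controls had 88.5, 84.9 and 86.1 FPKM of DKK1 and the knockdown libraries 55.9, 53.1 and 51.2 FPKM. All knockdown libraries lay below all controls. The mean went from 86.5 ± 1.85 to 53.4 ± 2.32 FPKM (SD, n = 3 each), which is 61.7% of the control level, and the log2 fold change was -0.70 (standard error, SE, 0.0352; adjusted p = 6.06e-08). PATU8988T held little DKK1, with 2.16, 1.93 and 1.73 FPKM in the controls and 3.80, 3.59 and 4.21 FPKM after knockdown. Here all knockdown libraries were above all controls, on 116 to 144 reads per control library and 225 to 276 per knockdown library. The level after knockdown was 199% of the control level, a log2 fold change of 0.96 (SE 0.0982, adjusted p = 9.06e-05), just short of a doubling.

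MIA PaCa-2 had 69.7, 58.9 and 71.3 FPKM of DKK1 in the controls and 56.7, 58.9 and 58.6 FPKM in the knockdown libraries. Control 2 lay among the knockdown libraries, so the groups overlapped. The log2 fold change was -0.19 (SE 0.0905, adjusted p = 0.131). Without control 2 it was -0.28 with an adjusted p of 2.52e-05, so the call in this line turns on that 1 library. DKK1 was counted over the same length in all 3 lines, and in the controls its mean level was highest in PANC1, then MIA PaCa-2 at 66.6 FPKM, then PATU8988T at 1.94 FPKM, with no overlap between the control libraries of neighbouring lines. These levels were set side by side without a test, since other genes of PANC1 were counted over other lengths.

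In GENCODE release 29 (GRCh38), DKK1 spans 52314296 to 52318042 of chromosome 10 on the plus strand, and 212 exonic bases overlap the antisense gene PRKG1-AS1. Reads of the pair cannot be told apart unless the counting used strand, which is not stated. The RefSeq promoter table (GRCh38.p14, 250 bases before to 50 after each start site) held 4 of the 9 members, DKK1, TCF7, LEF1 and RNF43. Their windows were searched on both strands for the TCF/LEF word CTTTGAA and its variants that end in AT, TA or TT, and for the CHR word TTTGAA and its variant with C as the third base, since the study examined DREAM, a repressor complex known to bind CHR elements. The E2F words TTTCCCGC, TTTCGCGC, TTTGCCGC and TTTGGCGC were searched as well. DKK1 is shown because it was called in opposite directions in different lines and because its window alone among the 4 held TCF/LEF words. The stretch lies at chr10:52314161-52314280 on the plus strand and ends at the base before the start site, with both TCF/LEF words in capitals:
DKK1: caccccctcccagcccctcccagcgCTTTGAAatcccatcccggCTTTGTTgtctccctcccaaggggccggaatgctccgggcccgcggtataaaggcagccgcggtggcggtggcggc
The first word begins 95 bases before the start site and the second 76 bases before it. The last 6 bases of the first word, TTTGAA, are also a CHR word, so this match counts for both motifs. In LEF1 the word TTTGAA lay from base 42 to base 47 after the start site and no TCF/LEF word was found, and the windows of TCF7 and RNF43 held none of the words. No member window held an E2F word. Of 27305 promoters in the table, 13.9% held a TCF/LEF word, 16.6% a CHR word and 3.3% an E2F word. A match of letters is a description and does not show binding.

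DKK3, a secreted relative of DKK1 that is not known as an LRP inhibitor of the same kind, fell in PANC1 and PATU8988T by small amounts. Its PANC1 values were 57.7, 58.5 and 59.7 FPKM in the controls and 49.7, 51.8 and 50.7 FPKM after knockdown. In PATU8988T they were 32.9, 33.1 and 35.0 FPKM against 26.7, 29.2 and 28.5 FPKM. The groups did not overlap in either line. The log2 fold change of DKK3 was -0.21 (SE 0.0293, adjusted p = 0.000112) in PANC1, where the level after knockdown was 86.6% of control, and -0.26 (SE 0.0466, adjusted p = 0.00224) in PATU8988T, at 83.5%. In MIA PaCa-2, 2 of the 6 libraries had 1 read each of DKK3 and the others none, so no change could be measured there. In PATU8988T, DKK1 and DKK3 were therefore called in opposite directions, and in PANC1 in the same one. DKK3 lies on chromosome 11 from 11963106 to 12009769 on the minus strand.

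TCF7, which encodes the β-catenin partner TCF1, fell in MIA PaCa-2, the only line in which it passed the filter. The controls had 6.57, 7.05 and 6.46 FPKM and the knockdown libraries 2.59, 2.74 and 2.49 FPKM. The lowest control was above 2 times the highest knockdown library. TCF7 went to 38.9% of the control level with a log2 fold change of -1.33 (SE 0.0981, adjusted p = 0.000276), on 1385 to 4081 reads per library. PANC1 had between 0.300 and 0.454 FPKM of TCF7 and PATU8988T between 0.150 and 0.295 FPKM, and in both the groups overlapped. A stretch of 210 exonic bases of TCF7 overlaps SKP1, which lies on the other strand and encodes a subunit of SCF ubiquitin ligases. SKP1 had a log2 fold change of 0.14 in MIA PaCa-2 (adjusted p = 0.457), at 12.4 to 17.2 FPKM. TCF7 lies on chromosome 5 from 134114711 to 134151865.

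LEF1, the other TCF/LEF factor among the members, rose in PANC1 and PATU8988T. In PANC1 its values were 2.93, 2.80 and 2.67 FPKM in the controls and 5.04, 5.09 and 4.75 FPKM after knockdown. All knockdown libraries were higher, at 177% of the control mean, with a log2 fold change of 0.80 (SE 0.0736, adjusted p = 4.88e-06). PATU8988T went from 1.22, 1.41 and 1.11 FPKM to 1.76, 1.88 and 1.57 FPKM, again without overlap. The log2 fold change there was 0.45 (SE 0.118, adjusted p = 0.0142), and the adjusted p was 0.0555 with no filter on low values and 0.0541 without control 3. MIA PaCa-2 had 0 to 7 reads of LEF1 per library, and LEF1 passed the filter in the other lines only, whereas TCF7 passed it in MIA PaCa-2 only. LEF1 lies on chromosome 4 from 108047545 to 108168956 and shares 279 exonic bases with LEF1-AS1 on the other strand.

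AXIN2, a scaffold of the β-catenin destruction complex and the usual readout of Wnt activity, was under 1 FPKM on average in every line and was not tested with the other genes. PANC1 had 0.904, 0.694 and 0.735 FPKM in the controls and 0.990, 1.002 and 1.003 FPKM after knockdown. MIA PaCa-2 had 0.195, 0.164 and 0.190 FPKM in the controls and 0.0718, 0.117 and 0.121 FPKM after knockdown, on 15 to 41 reads per library. The groups did not overlap in either line, with knockdown higher in PANC1 and lower in MIA PaCa-2 (two-sided exact permutation test, p = 0.1 for both, the lowest value possible with 3 libraries against 3). In PATU8988T the controls had 0.498, 0.554 and 0.597 FPKM and the knockdown libraries 0.403, 0.311 and 0.517 FPKM, and the groups overlapped (exact permutation test, two-sided, p = 0.2). Fitted with no filter on low values, the log2 difference of AXIN2 was 0.33 for PANC1, -0.48 for MIA PaCa-2 and -0.37 for PATU8988T, with limma adjusted p-values of 0.0831, 0.0687 and 0.263, so none passed. AXIN2 lies on chromosome 17 from 65528563 to 65561647 and shares 1316 exonic bases with AC004805.1 on the same strand, so reads of the 2 genes may be mixed.

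ZNRF3, the ligase that removes Frizzled receptors, fell in MIA PaCa-2 and PANC1. MIA PaCa-2 went from 3.08, 3.01 and 2.97 FPKM to 1.71, 1.96 and 1.74 FPKM, with no overlap. This was 59.7% of the control level, a log2 fold change of -0.71 (SE 0.108, adjusted p = 0.00309). In PANC1 the values were 1.86, 2.01 and 1.92 FPKM in the controls and 1.45, 1.67 and 1.42 FPKM in the knockdown libraries, a log2 fold change of -0.34 (SE 0.110, adjusted p = 0.0184). The groups did not overlap there either, but the adjusted p was 0.0629 without control 2, 0.0518 without knockdown 1 and 0.0576 without knockdown 3. PATU8988T had 2.06 ± 0.149 and 2.003 ± 0.101 FPKM of ZNRF3 (SD, n = 3 each), and its log2 fold change was -0.03 (adjusted p = 0.788). ZNRF3 lies on chromosome 22 from 28883592 to 29057487 on the plus strand.

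RNF43, the related ligase, was close to the lowest detectable level. It had 11 to 38 reads per library of PANC1, 2 to 16 of MIA PaCa-2 and 0 to 2 of PATU8988T, and the groups overlapped in every line. Knockdown libraries 1 and 2 of PANC1 had 38 reads each and knockdown 3 had 17, against 14, 19 and 11 in the controls. RNF43 lies on chromosome 17 from 58352500 to 58417595 on the minus strand. It shares 1521 exonic bases with TSPOAP1-AS1 on the other strand, and on its own strand 143 with SUPT4H1 and 4326 with AC004687.2, so even these reads are uncertain.

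FZD7, a Frizzled receptor for Wnt ligands, fell in PATU8988T, from 3.19, 3.36 and 3.45 FPKM to 2.13, 2.13 and 1.95 FPKM. No knockdown library reached a control. The level after knockdown was 62.1% of control, a log2 fold change of -0.66 (SE 0.0773, adjusted p = 0.000195). In PANC1, FZD7 had 3.26, 2.51 and 3.00 FPKM in the controls and 2.42, 2.38 and 2.37 FPKM after knockdown, a log2 fold change of -0.27 (SE 0.105, adjusted p = 0.0391). That call was lost when any 1 library other than control 2 was left out, with adjusted p-values from 0.0671 to 0.150, and with no filter on low values at 0.0782. MIA PaCa-2 had 4.10, 5.77 and 4.09 FPKM against 3.91, 3.95 and 3.94 FPKM, and the highest value was again that of control 2. The log2 fold change of FZD7 in that line was -0.22 (adjusted p = 0.292), and -0.06 without control 2. FZD7 lies on chromosome 2 from 202034587 to 202038445 on the plus strand.

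LRP6, the co-receptor that DKK1 binds, had no change that passed the test in any line with all libraries. PANC1 had 7.99, 7.33 and 7.39 FPKM in the controls and 8.07, 8.25 and 8.49 FPKM after knockdown. The knockdown libraries were all higher, by a log2 fold change of 0.13 (SE 0.0560, adjusted p = 0.0628), and the adjusted p was 0.0127 with voom on the reads recovered from the FPKM and 0.0324 without control 1. MIA PaCa-2 had 6.63, 4.43 and 6.66 FPKM against 7.73, 7.73 and 7.62 FPKM. Control 2 was far below the other controls, and the log2 fold change of 0.40 (SE 0.169, adjusted p = 0.101) became 0.21 (adjusted p = 0.00275) without it. PATU8988T had 3.30 ± 0.115 and 3.54 ± 0.331 FPKM (SD, n = 3 each), the groups overlapped, and the log2 fold change was 0.09 (adjusted p = 0.392). LRP6 lies on chromosome 12 from 12116025 to 12267012 on the minus strand.

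**Figure D2:**
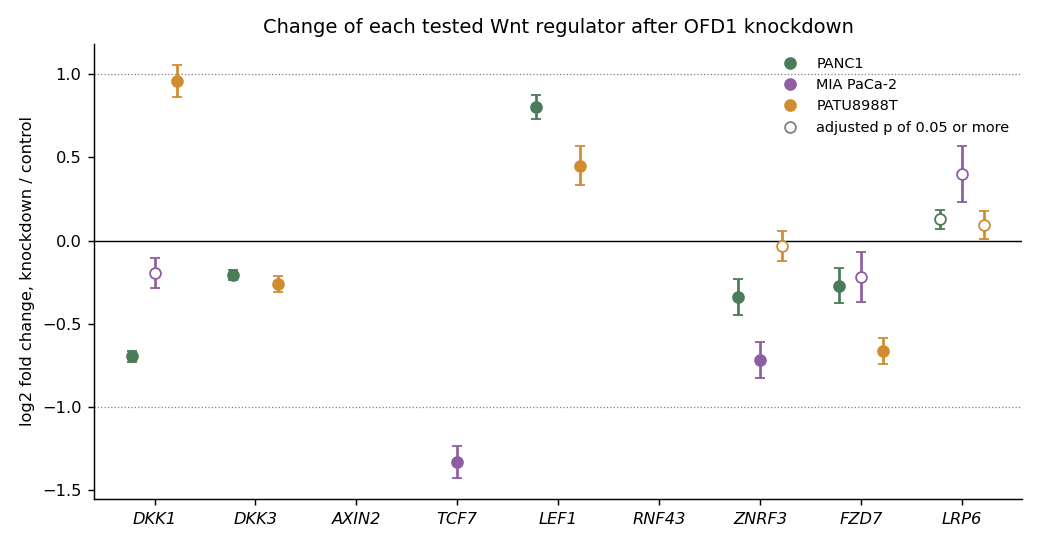
Log2 fold change of knockdown over control (y axis) for the members tested in each line, with bars of 1 standard error; filled points have an adjusted p below 0.05, open points do not, and dotted lines mark a 2-fold change either way. AXIN2 and RNF43 have no points because they were below the filter. DKK1 has points on both sides of 0, and TCF7 at -1.33 in MIA PaCa-2 is the only point beyond the dotted lines.

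Whether a change differed between lines was tested as an interaction over all 18 libraries, for the 7 members with a mean of at least 1 FPKM over these libraries. DKK1 differed in all 3 pairs of lines. Its log2 fold change in PANC1 was lower than that in PATU8988T by 1.65 (PANC1 minus PATU8988T -1.65, SE 0.116, adjusted p = 3.55e-08), that in MIA PaCa-2 was also lower than that in PATU8988T (difference -1.15, adjusted p = 7.81e-07), and PANC1 was below MIA PaCa-2 (difference -0.50, adjusted p = 0.00261). ZNRF3 fell more in MIA PaCa-2 than it changed in PATU8988T (difference -0.68, adjusted p = 0.000218) and more than in PANC1 (PANC1 minus MIA PaCa-2 0.38, adjusted p = 0.0196), while PANC1 minus PATU8988T was -0.30 (adjusted p = 0.0617, and 0.0369 without MIA PaCa-2 control 2).

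FZD7 differed between MIA PaCa-2 and PATU8988T by 0.44 (adjusted p = 0.0330), a call that was lost with a pseudocount of 1 (0.31, adjusted p = 0.0530). Between PANC1 and PATU8988T the difference of 0.39 for FZD7 did not pass (adjusted p = 0.0757), but it did without MIA PaCa-2 control 2 (adjusted p = 0.00614). LEF1 in PANC1 and PATU8988T, both of which express it, differed by 0.35 (adjusted p = 0.155, and 0.00155 with a pseudocount of 1). LRP6 did not pass in any pair, with differences from -0.27 to 0.31. For TCF7, LEF1 and DKK3, the pairs of a line past the filter with a line below it rest mainly on the change in the line past the filter. These differences were 1.14 and -1.25 for TCF7 in the pairs with MIA PaCa-2, 0.64 for LEF1 between PANC1 and MIA PaCa-2 and 0.26 for DKK3 between MIA PaCa-2 and PATU8988T. In the line below the filter, the log2 fold change was -0.19 (PANC1) and -0.08 (PATU8988T) for TCF7 and 0.16 (MIA PaCa-2) for LEF1. For DKK3, PANC1 minus MIA PaCa-2 was -0.21 (adjusted p = 0.0639, and 0.00909 without MIA PaCa-2 control 2). Of the members past the filter in both lines of a pair, 2 of 4 differed between PANC1 and MIA PaCa-2, 1 of 6 between PANC1 and PATU8988T and 3 of 4 between MIA PaCa-2 and PATU8988T, where 43.3%, 35.7% and 52.4% of all genes of that kind did. Among all 10697 genes tested the shares were 43.2%, 35.8% and 51.1%. In simulated data for PANC1 minus PATU8988T, 50 of the 10451 genes without a planted difference were called beside 200 with one. The planted differences were larger than any seen for a member, and no simulated library stood apart as MIA PaCa-2 control 2 did. These numbers therefore need not hold for the differences reported here. Each line enters 2 of these pairs, so the pairs share libraries.

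**Figure D3:**
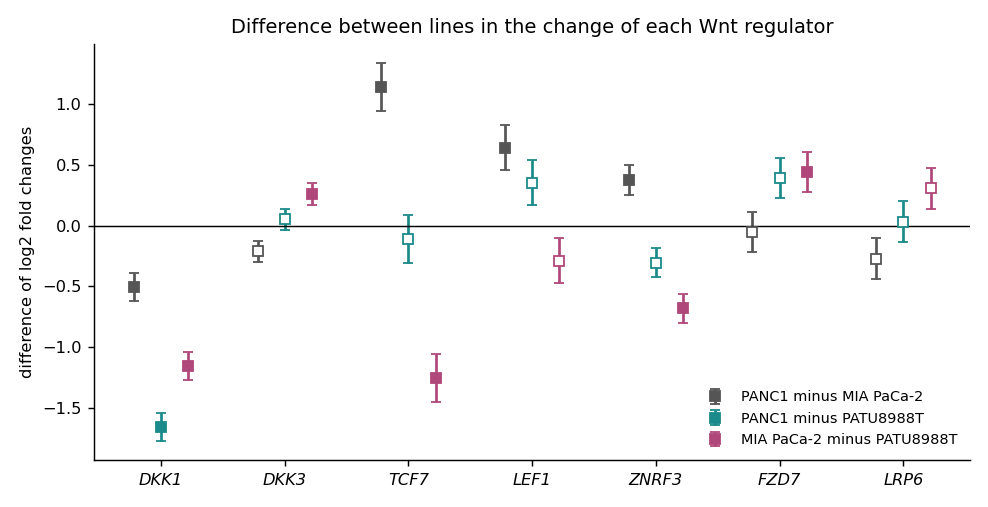
Difference between a pair of lines in the log2 fold change of each member (y axis, log2 units, first line minus second), with bars of 1 standard error; filled squares have an adjusted p below 0.05. DKK1 lies below 0 in all 3 pairs, reaching -1.65 for PANC1 minus PATU8988T, and TCF7 lies apart in both pairs that hold MIA PaCa-2, the only line in which it passed the filter.

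Other inhibitors and the partners of DKK1 were read from a list of 17 secreted antagonists and KREMEN receptors, of which 4 were tested for PANC1, 3 for MIA PaCa-2 and 5 for PATU8988T. All 4 fell in PANC1, 1 fell in MIA PaCa-2, and in PATU8988T 3 fell and 1, DKK1, rose. Shares for all tested genes, against which this and the following lists are to be read, were 32.2% lower and 40.1% higher for PANC1, 21.7% and 18.7% for MIA PaCa-2, and 18.5% and 20.9% for PATU8988T. Without MIA PaCa-2 control 2, 4302 of the 10758 genes tested in that line fell and 3780 rose, against 2338 and 2012 with it. Counts without control 2, here and in the following lists, are to be read against those numbers. Of the 3 antagonists, 2 fell in that line without it. KREMEN2, a membrane receptor for DKK1, fell in all lines. In PANC1 it had 3.06, 3.53 and 3.63 FPKM in the controls and 1.84, 1.40 and 1.07 FPKM after knockdown, and in PATU8988T 1.97, 1.83 and 2.11 FPKM against 0.638, 0.895 and 1.32 FPKM, a mean below 1 FPKM after knockdown. Its log2 fold changes in these lines were -1.22 (adjusted p = 9.25e-05) and -1.03 (adjusted p = 0.00368, and 0.0288 with no filter). That of MIA PaCa-2 was -0.91 (adjusted p = 0.0229), and -0.63 without control 2 (adjusted p = 0.000183). MIA PaCa-2 control 2 had 13.1 FPKM of KREMEN2 against 7.49 and 7.22 FPKM in the other controls, and the 3 knockdown libraries of that line had 5.24, 4.25 and 4.70 FPKM. Leaving out any 1 of these knockdown libraries raised the adjusted p there to between 0.0567 and 0.0872. KREMEN2 therefore fell in PATU8988T, where DKK1 rose, and in PANC1, where DKK1 fell too. KREMEN1 had a log2 fold change of -0.19 (adjusted p = 0.0934) in PATU8988T and -0.03 in MIA PaCa-2, where it was above 0 under median centring, without control 2 and without knockdown 3. SFRP1, a secreted protein that binds Wnt ligands, fell in PANC1 from 5.76 to 2.92 FPKM on average (log2 fold change -0.96, adjusted p = 9.59e-07). NOTUM, a secreted enzyme that inactivates Wnt proteins, had 1.39, 1.25 and 1.70 FPKM in the PATU8988T controls and 0.731, 0.505 and 0.470 FPKM after knockdown (log2 fold change -1.22, adjusted p = 0.000671). With a mean of 1.01 FPKM it passed the filter only through the controls, and with no filter its adjusted p was 0.00827.

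Of 21 genes for Wnt ligands and their secretion, 7 were tested for PANC1, 2 for MIA PaCa-2 and 4 for PATU8988T. In PANC1, 3 fell and 2 rose (against 32.2% and 40.1% of all tested genes), in MIA PaCa-2 1 rose, and in PATU8988T 1 fell and 1 rose. WNT7B changed most among those of PANC1. It had 10.2, 10.0 and 9.67 FPKM in the PANC1 controls and 2.51, 2.42 and 3.21 FPKM after knockdown (log2 fold change -1.85, adjusted p = 8.85e-08), and it was at most 0.143 FPKM in any library of the other lines. WNT5B, a ligand mostly tied to β-catenin-independent signalling, fell in PANC1 from 5.76 to 3.21 FPKM (log2 fold change -0.83, adjusted p = 2.58e-05) and had a log2 fold change of 0.09 in PATU8988T (adjusted p = 0.229), where it was the most abundant tested ligand at 28.1 FPKM in the controls. WNT3 in PATU8988T rose by a log2 fold change of 0.25 (adjusted p = 0.0137, and 0.0547 without control 3). PORCN, the enzyme that adds a lipid to Wnt proteins, rose in MIA PaCa-2 by 0.54 (adjusted p = 0.0174) and fell in PATU8988T by 0.23 (adjusted p = 0.0479) on the log2 scale. Its calls were lost in 4 of 6 fits without 1 library in the first line and 5 of 6 in the second. The call in PATU8988T was also lost with no filter, median centring, a replicate block or voom (adjusted p from 0.0565 to 0.112). WLS, which carries Wnt proteins to the surface, rose in PANC1 from 28.7 to 33.4 FPKM (log2 fold change 0.21, adjusted p = 0.000980) and had log2 fold changes of 0.07 and -0.10 in the other lines (adjusted p = 0.591 and 0.136).

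Among 16 receptor genes, of which 15 were in the table, 12 were tested in PANC1 and 11 in each of the other lines. In PANC1 5 fell and 4 rose, in MIA PaCa-2 1 fell and 2 rose, and in PATU8988T 2 fell and 2 rose. The 9 called of 12 in PANC1 stand beside 32.2% lower and 40.1% higher of all tested genes. Without control 2 the counts in MIA PaCa-2 were 4 and 4, beside 4302 and 3780 of all 10758 tested genes. LRP5, the other co-receptor that DKK1 binds, fell in PANC1 from 92.2 to 49.5 FPKM (log2 fold change -0.90, adjusted p = 3.93e-09), and its changes of -0.32 in MIA PaCa-2 and -0.13 in PATU8988T did not pass (adjusted p = 0.175 and 0.111), the first passing without control 2 (-0.13, adjusted p = 0.0331). DKK1, KREMEN2 and LRP5 thus all fell in PANC1, where LRP6 did not pass the test. ROR1, a receptor kinase for WNT5 ligands, fell in PANC1 from 3.16, 3.20 and 3.64 FPKM to 1.38, 1.24 and 1.53 FPKM (log2 fold change -1.22, adjusted p = 4.44e-06). It fell in MIA PaCa-2 as well, from 1.65, 1.40 and 1.70 FPKM to 0.610, 0.455 and 0.542 FPKM (log2 fold change -1.40, adjusted p = 0.000884), and passed the filter there only through the controls, with an adjusted p of 0.00383 when no filter was used. FZD8, another Frizzled receptor, rose in MIA PaCa-2 from 4.17 to 8.31 FPKM (log2 fold change 1.02, adjusted p = 0.00963) and in PATU8988T from 0.851 to 1.23 FPKM (log2 fold change 0.47, adjusted p = 0.0362), where it passed the filter only through the knockdown libraries and was not called without a filter (adjusted p = 0.116). PTK7, a Wnt co-receptor of planar cell polarity, fell in PANC1 by 0.32 (adjusted p = 0.000158) and in PATU8988T by 0.24 (adjusted p = 0.00192) on the log2 scale. It rose in MIA PaCa-2 by 0.63 (adjusted p = 0.0229, a call lost without any 1 library other than control 2). RYK, a Wnt receptor with a kinase-like domain, rose in PANC1 (log2 fold change 0.34, adjusted p = 9.62e-05) and PATU8988T (0.16, adjusted p = 0.0171, and above 0.05 without control 3 or knockdown 3).

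LGR4, the receptor through which R-spondins block RNF43 and ZNRF3, fell in PANC1 from 57.2, 55.4 and 58.9 FPKM to 28.5, 25.8 and 28.0 FPKM (log2 fold change -1.06, adjusted p = 1.23e-08). PATU8988T went from 3.94, 3.38 and 3.38 FPKM of LGR4 to 2.62, 2.33 and 2.37 FPKM (log2 fold change -0.53, adjusted p = 0.00150). MIA PaCa-2 had 3.32, 1.75 and 2.99 FPKM in the controls and 2.02, 1.95 and 2.46 FPKM after knockdown, and control 2 was the lowest of these. The log2 fold change in that line was -0.27 (adjusted p = 0.411), and -0.54 without control 2 (adjusted p = 0.00247). LGR5 had at most 1 read in any library, and of the R-spondins RSPO4 in MIA PaCa-2 was the only one tested (log2 fold change -0.16, adjusted p = 0.553). Of the 9 genes of this list, 2 were tested and 2 fell in PANC1, 1 of 3 fell in MIA PaCa-2 and 1 of 2 fell in PATU8988T, where 32.2%, 21.7% and 18.5% of all tested genes fell. Without control 2, 2 of the 3 fell in MIA PaCa-2, where 4302 of 10758 tested genes then fell.

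In the cytoplasm, 20 genes of β-catenin transduction were listed. Of 17 tested in PANC1, 6 fell and 8 rose, of 17 in MIA PaCa-2 3 fell and 1 rose, and of 15 in PATU8988T 2 fell and 4 rose. In PANC1 these shares are near the 32.2% and 40.1% of all tested genes. In MIA PaCa-2 the counts were 5 and 6 without control 2, beside 4302 and 3780 of all 10758 tested genes. CSNK1A1, the kinase that primes β-catenin for destruction, fell in PANC1 from 50.1, 52.4 and 54.1 FPKM to 16.4, 16.4 and 17.2 FPKM (log2 fold change -1.64, adjusted p = 5.58e-10). MIA PaCa-2 had 75.2, 62.1 and 75.8 FPKM of CSNK1A1 in the controls and 35.7, 36.6 and 36.6 FPKM after knockdown (log2 fold change -0.96, adjusted p = 0.000678), while the change of -0.12 in PATU8988T did not pass (adjusted p = 0.0623). The differences between PATU8988T and each other line passed the interaction test (-1.52 for PANC1, adjusted p = 1.03e-08, and -0.84 for MIA PaCa-2, adjusted p = 1.96e-06). TNKS2, a tankyrase that marks AXIN proteins for degradation, rose in PANC1 by 0.60 (adjusted p = 1.13e-06) and in MIA PaCa-2 by 0.90 (adjusted p = 0.00912) on the log2 scale. CTNNB1, which encodes β-catenin, rose in PANC1 from 101.4 to 126.9 FPKM (log2 fold change 0.32, adjusted p = 4.28e-07). By the interaction test this change was above that in MIA PaCa-2 by 0.44 (adjusted p = 1.76e-06) and above that in PATU8988T by 0.22 (adjusted p = 0.00139). Without control 2, CTNNB1 fell in MIA PaCa-2 (log2 fold change -0.12, adjusted p = 0.00855). NKD2, an inhibitor that binds Dishevelled, fell in PATU8988T (log2 fold change -0.69, adjusted p = 0.000914). Its mean there was 1.61 FPKM in the controls and 0.957 FPKM after knockdown, so it passed the filter only through the controls. With no filter the adjusted p of NKD2 in PATU8988T was 0.00745. It fell in MIA PaCa-2 as well (-0.77, adjusted p = 0.0135, and 0.0517 to 0.0569 without any 1 knockdown library). DVL1, a Dishevelled protein, fell in PATU8988T by 0.26 (adjusted p = 0.00431), and FBXW11, a ubiquitin ligase subunit that recognises β-catenin, rose there by 0.20 (adjusted p = 0.00378) on the log2 scale.

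The list of 16 nuclear effectors holds both TCF/LEF members. Of 14 tested in PANC1, 2 fell and 6 rose, of 13 in MIA PaCa-2 4 fell and 2 rose, and of 13 in PATU8988T 1 fell and 1 rose, beside 32.2% and 40.1%, 21.7% and 18.7%, and 18.5% and 20.9% of all tested genes. Without control 2 the counts in MIA PaCa-2 were 5 and 4, beside 4302 and 3780 of all 10758 tested genes. TCF7L1, a TCF factor known mostly as a repressor, had 8.19, 7.87 and 7.66 FPKM in the PANC1 controls and 11.0, 10.7 and 12.1 FPKM after knockdown (log2 fold change 0.50, adjusted p = 3.10e-05). It rose in MIA PaCa-2 by 0.37 (adjusted p = 0.0275) and fell in PATU8988T, from 4.89, 4.10 and 4.201 FPKM to 3.13, 3.30 and 2.83 FPKM (log2 fold change -0.50, adjusted p = 0.00221). The change in PATU8988T differed from those in PANC1 (1.001, adjusted p = 1.29e-05) and MIA PaCa-2 (0.86, adjusted p = 2.98e-05). TCF7L2 did not pass in any line, with log2 fold changes between -0.12 and 0.16. BCL9, a coactivator that binds β-catenin, rose in PANC1 from 7.87 to 13.6 FPKM (log2 fold change 0.78, adjusted p = 3.46e-07). CREBBP, a histone acetyltransferase, fell in MIA PaCa-2 from 9.13 to 6.10 FPKM (log2 fold change -0.57, adjusted p = 0.00261). Of the TLE co-repressors of TCF factors, TLE1 rose in PANC1 from 21.6 to 28.4 FPKM (log2 fold change 0.40, adjusted p = 6.39e-06) and TLE2 in MIA PaCa-2 from 5.01 to 8.61 FPKM (0.79, adjusted p = 0.00883). CTNNBIP1, an inhibitor that binds β-catenin, had a log2 fold change of 0.10 in PATU8988T (adjusted p = 0.0945, and 0.0322 without knockdown 1).

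Of 22 genes listed as Wnt targets in various tissues, which include members and other genes above, 9 passed the filter for PANC1, 8 for MIA PaCa-2 and 9 for PATU8988T. In PANC1 6 fell and 2 rose, in MIA PaCa-2 4 fell and none rose (7 and 1 without control 2), and in PATU8988T 4 fell and 2 rose. Among all tested genes 32.2% and 40.1%, 21.7% and 18.7%, and 18.5% and 20.9% did so with all libraries. Without control 2, 4302 of 10758 genes fell and 3780 rose in MIA PaCa-2. CCND1, the cyclin of early G1, fell in all lines, with log2 fold changes of -0.87 (PANC1, adjusted p = 5.82e-09), -0.27 (MIA PaCa-2, adjusted p = 0.0196) and -0.20 (PATU8988T, adjusted p = 0.00207). CD44, a cell surface glycoprotein, fell in PANC1 from 123 to 47.1 FPKM (log2 fold change -1.39, adjusted p = 8.96e-11) and in PATU8988T from 49.1 to 38.6 FPKM (-0.35, adjusted p = 0.000114). EPHB2, an ephrin receptor, fell in PANC1 by a log2 fold change of -1.15 (adjusted p = 7.47e-08), and TNFRSF19 rose there by 1.05 (adjusted p = 0.000119) from 0.676 to 1.51 FPKM, passing the filter only through the knockdown libraries (adjusted p = 0.000647 with no filter). APCDD1 and SP5 had at most 7 reads per library in PANC1, DKK4 had none anywhere, and ASCL2 at most 1.

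**Figure D4:**
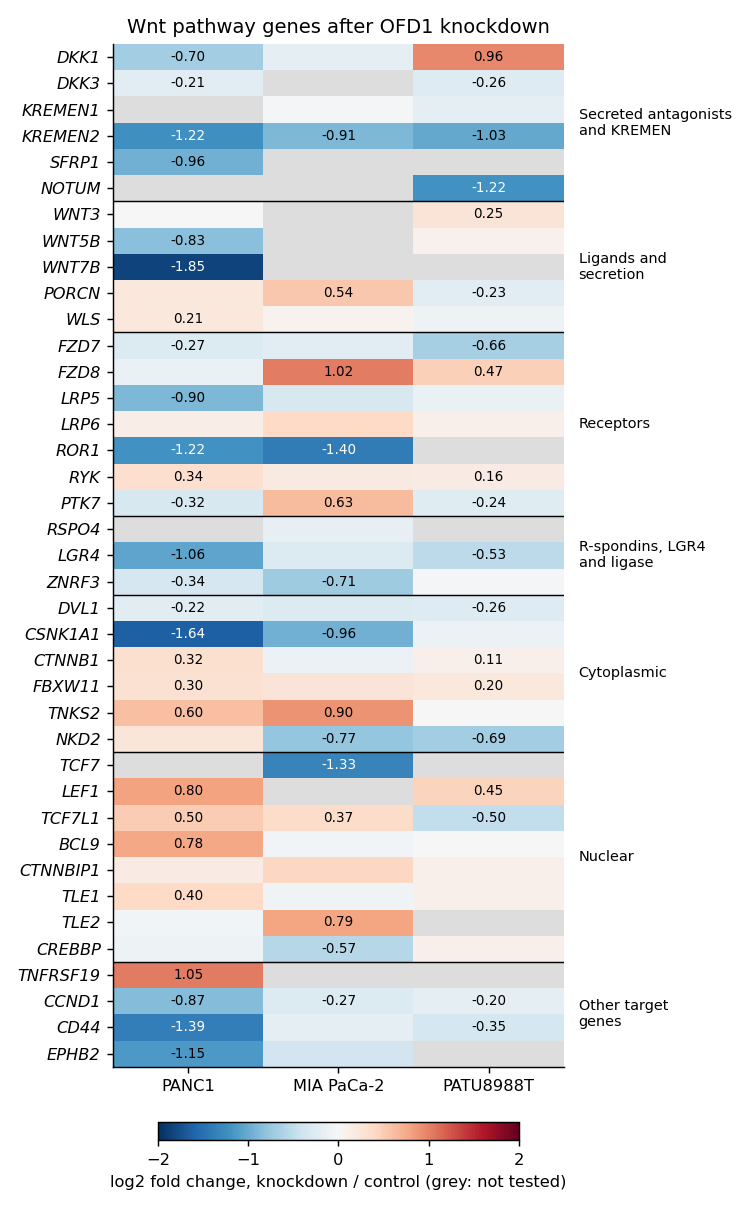
Log2 fold change of knockdown over control (colour, from -2 to 2, blue for lower) in each line for the tested members and for the pathway genes with the smallest p or a 2-fold change in a line; numbers are printed where the adjusted p was below 0.05, and grey marks genes not tested. KREMEN2 is blue in all 3 lines, DKK1 changes colour between PANC1 and PATU8988T, and WNT7B in PANC1 is the darkest cell.

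The genes most like DKK1 were sought among 9082 genes tested in all lines, by Pearson's r over the 18 libraries after subtracting the mean of each line. ATIC (r = 0.903), PSMD14 (0.900), CS (0.883), RAB15 (0.879) and CTDSPL (0.876) ranked highest, and ZNF467 (-0.961) lowest. RAB15, a small GTPase of endosomes, had log2 fold changes of -0.29 in PANC1 and 0.40 in PATU8988T. ZNF467, a zinc finger protein, had 0.67 in PANC1 and -1.15 in PATU8988T. Both genes were picked by their r to DKK1 in these same libraries, so these directions follow from the choice and are no separate result. Among the members, r to DKK1 ran from -0.45 for FZD7 to 0.33 for ZNRF3. The libraries share lines and conditions, so these values describe the pattern and carry no p.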

How the data were processed

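RNA-seq of 18 libraries was analysed, and groups came from the sample titles. According to the study's methods, RNA was extracted with TRIzol, reads were aligned with HISAT2 and counted with HTSeq-count, whereas the labels name an RNeasy kit. The submitters' processing notes list the builds GRCm38, mm10 and hg38 without roles. The authors deposited FPKM values, already scaled by gene length and library total. Genes of PANC1 were scaled by other lengths for LEF1, LRP6, ZNRF3, TCF7 and DKK3 than those of the other lines, so levels of these genes were set side by side within a line only and the 1 FPKM filter stood at other read depths per line. Whole reads per gene were recovered from the FPKM steps and gave 99.61 to 99.67% of the library totals, and the steps were tested on simulated data.

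Genes with a mean of at least 1 FPKM over the 6 libraries of a line were fitted with limma 3.58.1 (R 4.3.3, lmFit and eBayes with trend) on log2(FPKM + 0.1), which understates changes of low genes. The Benjamini-Hochberg adjustment covered all genes tested in that line, and a call required an adjusted p below 0.05, or also a fold change above 2 or below 0.5, the criteria of the study. Differences between lines were interaction contrasts over all 18 libraries. On simulated data, 196, 196 and 190 of 200 planted changes were found in PANC1 (10891 genes), MIA PaCa-2 (10740 genes) and PATU8988T (10692 genes), and 200 of 200 planted differences between PANC1 and PATU8988T (10651 genes). False calls among unchanged genes were 9, 14 and 8 within lines and 50 for the difference. Planted changes were 2-fold or larger and no simulated library stood apart as MIA PaCa-2 control 2 did, so these counts need not hold for the measured libraries. Alternatives were pseudocounts of 1 and 0.01, no filter, a mean of at least 5 FPKM, median centring, voom on the recovered reads, a replicate block and leaving out each library. DESeq2, which the authors used, was not run. The deposited values hold no counts, and the reads recovered from them were used in the voom fit.

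Named genes were the 9 members, OFD1, and from each list the genes past the fold threshold and up to 3 of smallest p in each line, with the 5 genes most like DKK1 and the least like it. Some genes outside that rule (SKP1, the markers, TCF7L2, LGR5 and other genes at or near 0 reads) were named after their values were seen. The members and lists were chosen with earlier results of these data known.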

Additional observations from a re-analysis of the deposited data

Results flagged for a closer look

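A total of 10 differences between lines in the effect of knockdown passed the interaction test (limma, Benjamini-Hochberg adjusted p below 0.05), from 7 members tested in 3 pairs of lines. Among all 10697 genes tested, 43.2% differed for PANC1 minus MIA PaCa-2, 35.8% for PANC1 minus PATU8988T and 51.1% for MIA PaCa-2 minus PATU8988T. For DKK1 the difference in log2 fold change was -0.50 for PANC1 minus MIA PaCa-2, -1.65 for PANC1 minus PATU8988T and -1.15 for MIA PaCa-2 minus PATU8988T, so DKK1 was the only member that differed in all 3 pairs. TCF7 differed by 1.14 for PANC1 minus MIA PaCa-2 and by -1.25 for MIA PaCa-2 minus PATU8988T, and ZNRF3 by 0.38 and -0.68 in the same pairs. The difference of LEF1 was 0.64 for PANC1 minus MIA PaCa-2. For MIA PaCa-2 minus PATU8988T, DKK3 differed by 0.26 and FZD7 by 0.44. LEF1 and DKK3 had at most 7 and 1 reads per library in MIA PaCa-2, so these differences rest mainly on the change in the other line. TCF7 passed the filter through MIA PaCa-2 only, so its differences rest mainly on the fall in that line. The call of FZD7 was lost with a pseudocount of 1 (0.31, adjusted p = 0.0530). FZD7 in MIA PaCa-2 was 5.77 FPKM in control 2 against 4.10 and 4.09 FPKM in the other controls.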

How the results depend on the processing

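Of 210 values of single members within lines under the alternatives, 194 kept their direction and their side of the threshold, 11 lost the call, 4 gained it and 1 turned its sign, ZNRF3 in PATU8988T without control 1 (0.0015, the other such fits reaching down to -0.0921). KREMEN1 in MIA PaCa-2 turned to 0.0089 under median centring and to 0.0086 without knockdown 3, and ranged from -0.0992 to 0.0744 when single libraries were left out. With a mean of at least 5 FPKM, which leaves fewer members tested, PANC1 had 2 lower and 0 higher members, MIA PaCa-2 had 0 lower, and PATU8988T had 1 lower and 0 higher. With voom 2 members were higher in PANC1, and with no filter 1 was higher in PATU8988T. Leaving out single libraries gave 2 to 3 lower and 1 to 2 higher members for PANC1. It gave 0 to 1 higher for MIA PaCa-2 and 1 to 2 higher for PATU8988T. In these fits DKK1 in MIA PaCa-2 ranged from -0.28 (without control 2, the only such fit that called it) to -0.14. For PANC1 minus PATU8988T, 2 members differed with a pseudocount of 1 (LEF1 gained) and 3 without MIA PaCa-2 control 2 (ZNRF3 and FZD7 gained). DKK3 for PANC1 minus MIA PaCa-2 was called with a pseudocount of 1 (adjusted p = 0.0182), without that library and under median centring (adjusted p = 0.0403), and LEF1 for MIA PaCa-2 minus PATU8988T with a pseudocount of 1 (adjusted p = 0.00940). Of all genes in MIA PaCa-2, 2012 were called higher and 2338 lower. Without control 2 these counts were 3780 and 4302, and without a knockdown library 1126 to 1141 and 1317 to 1348. With a mean of at least 5 FPKM, 1204 were higher there, and in PATU8988T 1240 were lower against 1981. In PATU8988T, 2235 genes were higher, and 1457 without control 2.

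Same-numbered control and knockdown libraries had correlations of their deviations from -0.11 to 0.13 over 9 comparisons, 1 of them above 0.1, so the numbers were not taken to pair the samples. With the replicate block, PANC1 had 4 lower and 1 higher member, MIA PaCa-2 had 2 and 0, PATU8988T had 2 and 2, and 1551 genes were higher and 1818 lower in MIA PaCa-2. AXIN2, RNF43 and the minor TCF/LEF factor of each line were below the filter of 1 FPKM, which limits what could be detected.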
